A study of Mus musculus with 27 samples.

Results

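Loss of Arid1a was examined in mouse thyroid tumor cell lines that carry a mutant Braf allele and had received vehicle only. The comparison was chosen by column name in the raw count table: the 3 vehicle columns of the Braf lines with Arid1a knockout (KO) against the 3 vehicle columns of the lines with the Braf allele alone, which are 6 of the 27 libraries in the series. The Arid1a KO lines are BA45198, BA47473 and BA49112, and the Braf lines are B47275, B48051 and B52482. All 6 lines share the Braf allele and the vehicle, a solution of Trappsol (a cyclodextrin preparation), and no line belongs to both genotypes. The same lines also received CKI (CH5126766, which blocks RAF and MEK) for 8 days at a dose of 300 nM, and the series further holds Braf lines with Arid2 KO or Smarcb1 KO under both treatments and 3 untreated wildtype libraries. The wording on bovine TSH, the hormone that stimulates thyroid cells, does not settle whether the vehicle cultures received it. The lines were made from dissected tumors by enzymatic digestion and then kept in culture, so a difference between genotypes is also a difference between separately derived tumor lines, and the 2 cannot be told apart. The labels used here do not give the age, the strain, the driver of the alleles or the deleted exons. The labels do not state whether each line came from a separate animal. In the main test, p-values measure the spread among libraries of all tumor lines under both treatments, not among the 6 compared lines alone.

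SWI/SNF (BAF) complexes use the energy of ATP to move or evict nucleosomes and so open promoters and enhancers to transcription factors. ARID1A is the large DNA-binding subunit of the canonical BAF form and is mutually exclusive with its paralog ARID1B, whereas ARID2 belongs to the PBAF form and SMARCB1 is a core subunit of both. Genes of SWI/SNF subunits are mutated in advanced thyroid cancers, and mutant BRAF is the common driver of papillary thyroid cancer, in which it activates the MAPK pathway.

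Total counts were 18417255 to 21477216 in the Braf vehicle libraries and 20860235 to 24095059 in the Arid1a KO vehicle libraries. Levels are given as CPM (each count scaled to a library of the same size), in the order of lines named above, and differences as log2 changes of KO minus Braf with their standard error (SE). A gene was called when its Benjamini-Hochberg adjusted p from edgeR's quasi-likelihood test was under 0.05 over 15634 genes tested. The test used the spread of all 24 tumor line libraries. Braf line B52482 stood apart from the other Braf lines: its root mean square log2 distance was 1.11 to 1.13 to the 3 KO lines, against 1.23 to B47275 and 1.52 to B48051. The thyroid transcription factor genes Pax8 and Nkx2-1 were present in all 6 libraries, at 35.9 to 129 CPM and 12.3 to 113 CPM. Slc5a5, which encodes the iodide transporter, was at most 0.703 CPM, and Tshr, the TSH receptor gene, at most 1.74 CPM.

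Arid1a RNA was lower in the KO lines but far from absent. It was 98.1, 69.6 and 77.8 CPM in the KO lines and 131, 134 and 138 CPM in the Braf lines. The groups did not overlap, and the means were 81.8 ± 14.7 and 134 ± 3.43 CPM (SD, n = 3 lines each). The log2 change was -0.71 ± 0.17 (adjusted p = 0.0325), and the call was lost with only the vehicle libraries in the fit (adjusted p = 0.0831) and with the line as a block (adjusted p = 0.0521). It was also lost without B47275 (adjusted p = 0.105), B48051 (0.093), BA47473 (0.186) or BA49112 (0.13). Counts over the whole gene show neither the deleted exons nor the protein. Of 26 SWI/SNF subunit genes tested, Arid1a alone was called, and the median log2 change of the list was 0.09. Arid1b, the paralog, was 145, 124 and 104 CPM in the KO lines and 78.3, 64.8 and 115 CPM in the Braf lines. Its groups overlapped and its change did not pass the test (0.53 ± 0.28, adjusted p = 0.307).

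Across all genes, more were lower than higher in the Arid1a KO lines. Of the 15634 genes, 567 (3.63%) were called, 153 higher (0.979%) and 414 lower (2.65%), while the median log2 change of all genes was -0.01. The called genes had a median log2 change of 2.51 where higher and -3.41 where lower. Expression did not overlap between the groups for 147 of the higher and 375 of the lower called genes. Without overlap, and whether called or not, 10.8% of all genes were higher and 12.1% lower. The count depended strongly on which lines and libraries entered. It was 165 of 14317 genes (1.15%) with the 12 vehicle libraries alone, 24 with only the 6 compared libraries, and 414 with the line as a block, of which 196 were higher. Leaving out B52482 gave 1312 calls, whereas leaving out B47275 gave 94 and B48051 gave 142, and leaving out BA45198, BA47473 or BA49112 gave 160, 68 or 74. In 186 of the 414 lower genes, B52482 lay nearer to the KO mean than to the mean of the other Braf lines, and the same was true of 21 of the 153 higher genes.

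**Figure D1:**
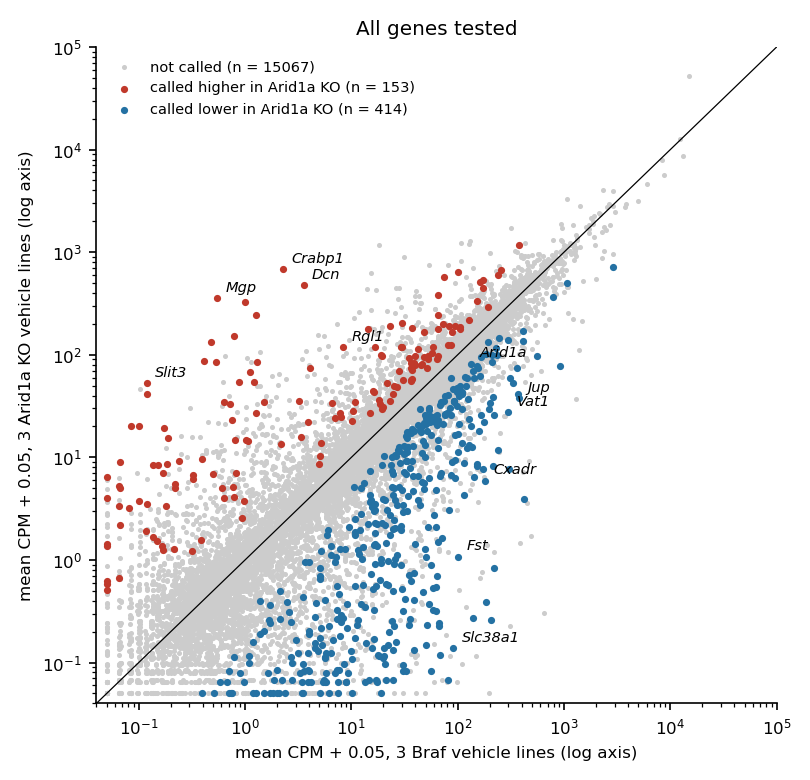
Mean level of each tested gene in the 3 Braf vehicle lines against the 3 Arid1a KO vehicle lines, both as CPM + 0.05 on log axes, with the 153 genes called higher in red, the 414 called lower in blue and the rest in grey. The called genes lie off the diagonal of equal levels, and the lower ones outnumber the higher ones.

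Of the 567 called genes, 106 (34 higher and 72 lower) were also called with the vehicle libraries alone, with the line as a block and without B52482. Leaving out each line in turn was stricter: 38 of the 567 were called in all 6 such fits. The genes described next were picked for their small adjusted p or for being among these 106, after their values were seen. Vat1, which encodes a membrane-associated protein of the quinone oxidoreductase family, had the smallest adjusted p. It was 31, 20.6 and 31 CPM in the KO lines and 329, 323 and 245 CPM in the Braf lines. Every KO line was far below every Braf line, B52482 included, and the log2 change was -3.44 ± 0.31 (adjusted p = 3.12e-05). Fst, which encodes follistatin, a secreted antagonist of activin, was 1.53, 0.673 and 0.874 CPM in the KO lines and 137, 85.3 and 80.4 CPM in the Braf lines (log2 change -6.62 ± 0.93, adjusted p = 0.00256). Cxadr, a receptor for coxsackievirus and adenovirus at cell junctions, was 3.27, 5.34 and 9.0 CPM against 186, 263 and 93.3 CPM (-4.94 ± 0.69, adjusted p = 0.00256). Neither gene overlapped between the groups. Vat1, Fst, Sft2d2, Cacna1a, Ptpdc1 and the pseudogene Gm10036 were also called with only the 6 compared libraries in the fit.

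The lower genes also included enzymes, a transporter and a signaling scaffold. Prkag2, a regulatory subunit of the energy sensor AMPK, was 3.43, 3.18 and 2.45 CPM in the KO lines and 27.2, 22.5 and 15.5 CPM in the Braf lines (-2.85 ± 0.38, adjusted p = 0.0023). Hk2, the hexokinase that starts glycolysis, was 31.4, 44.2 and 39.5 CPM against 235, 292 and 118 CPM (-2.49 ± 0.60, adjusted p = 0.0314). Both genes were low in all KO lines and the groups did not overlap, while Hk2 was the sole called member of 20 glycolysis and hypoxia genes. Wwc1 (KIBRA), a scaffold of the Hippo pathway, was 17.2, 27.9 and 32.9 CPM against 277, 218 and 168 CPM (-3.09 ± 0.56, adjusted p = 0.00855). For Wwc1 too, the highest KO line was below the lowest Braf line. Slc38a1, a transporter of glutamine and other neutral amino acids, was nearly silent in the KO lines at 0, 0.0897 and 0.175 CPM, against 64.9, 184 and 23.1 CPM (-9.85 ± 1.61, adjusted p = 0.00439). The Slc38a1 call was lost with the line as a block (adjusted p = 0.119). That of Hk2 held in only 1 of the 6 fits that left out a line (adjusted p up to 0.125).

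The higher genes with a small adjusted p included a calcium channel, a GTPase regulator and an adenylyl cyclase. Cacna1a, the pore subunit of the P/Q-type calcium channel, was 52.3, 65.6 and 105 CPM in the KO lines and 2.86, 5.33 and 3.91 CPM in the Braf lines (4.20 ± 0.51, adjusted p = 0.000879). Rgl1, an exchange factor for Ral GTPases, was 125, 104 and 124 CPM against 6.98, 13.7 and 4.27 CPM (3.82 ± 0.56, adjusted p = 0.00326). All KO lines were above all Braf lines in both genes, and the KO lines were close to each other in Rgl1. Adcy8, an adenylyl cyclase, was 22.7, 10.9 and 90.2 CPM against 0, 0.157 and 0.0521 CPM (9.12 ± 1.38, adjusted p = 0.00326). Mitf, a transcription factor of melanocytes and other lineages, was 24.3, 12.4 and 29.9 CPM against 2.16, 2.72 and 6.82 CPM (2.51 ± 0.45, adjusted p = 0.00792). Cblb, a ubiquitin ligase that restrains receptor signaling, was 94.3, 119 and 79.8 CPM against 7.82, 29.7 and 21.2 CPM (2.32 ± 0.45, adjusted p = 0.0117). These 3 genes did not overlap either. The calls of Mitf and Cblb were lost when some lines were left out singly (adjusted p up to 0.0545 and 0.0754). Chic1 and Ptpdc1 were higher by 3.06 ± 0.47 and 2.03 ± 0.28 (adjusted p = 0.00326 and 0.00256).

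**Figure D2:**
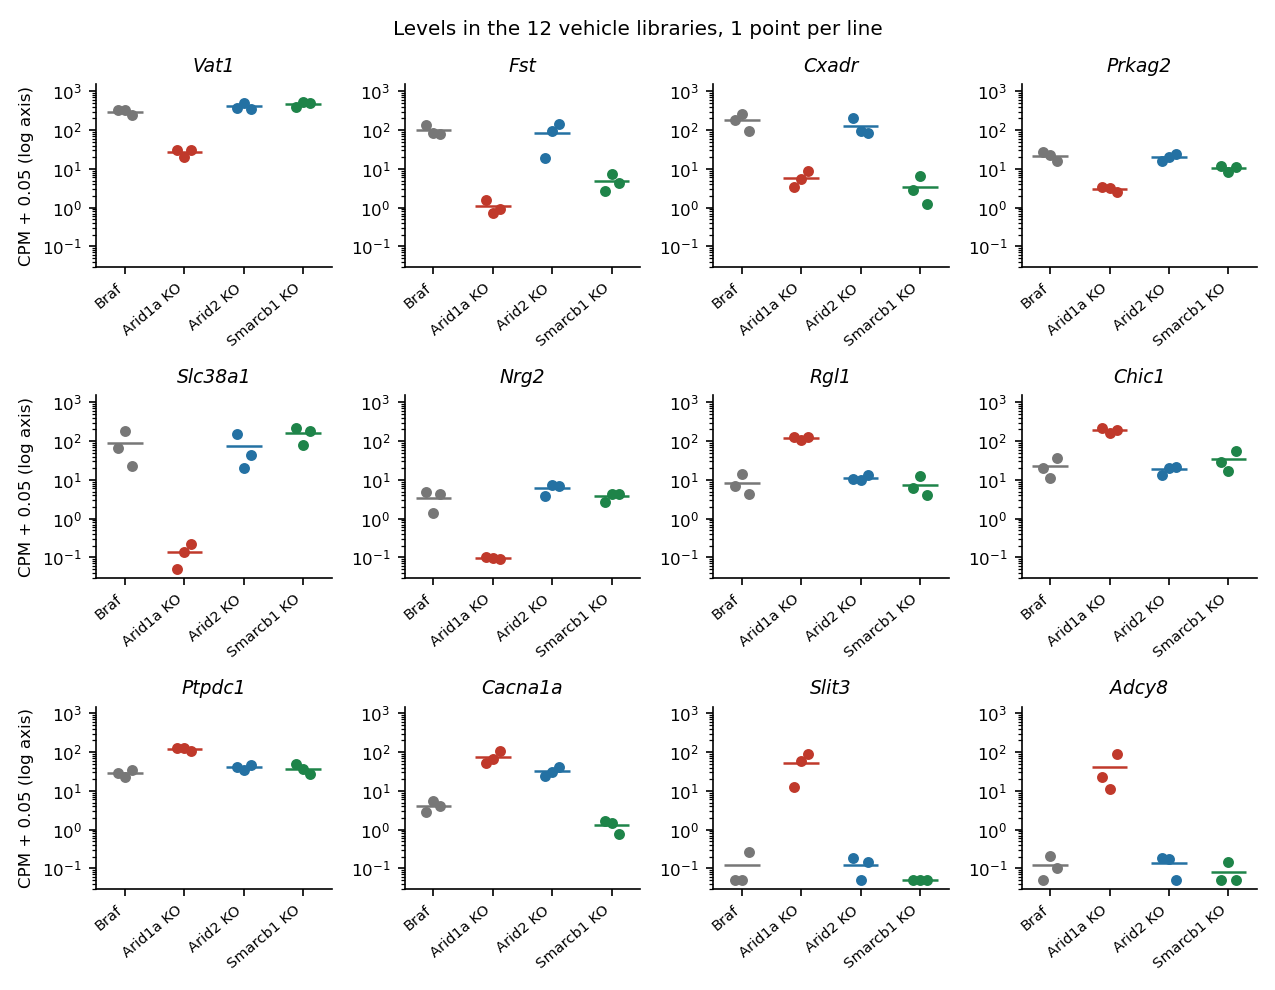
Levels of 12 genes in the vehicle libraries of the 4 genotypes, as CPM + 0.05 on a log axis, with 1 point per line and a bar at the mean of 3 lines. The Arid1a KO lines are apart from the Braf lines in each panel, and in Vat1 they are also apart from the Arid2 KO and Smarcb1 KO lines.

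The largest rises, by a rule on the size of the change among called genes without overlap, included genes of secreted and matrix proteins. Slit3, a secreted guidance cue, was 12.2, 57.5 and 88.6 CPM in the KO lines and 0, 0 and 0.208 CPM in the Braf lines (9.49 ± 1.53, adjusted p = 0.00516). Dlk1, an imprinted gene of fetal tissues, was 86.1, 137 and 175 CPM against 0.0469, 1.20 and 0.0521 CPM (8.26 ± 1.59, adjusted p = 0.0117). Crabp1, a binding protein for retinoic acid, was 853, 406 and 794 CPM against 0.141, 0.261 and 6.25 CPM (8.27 ± 2.04, adjusted p = 0.0334). These genes were close to silent in B47275 and B48051, and Crabp1 was somewhat higher in B52482 than in the other Braf lines. Mgp, an inhibitor of calcification in matrix, Adcy8, Cbln1, Ptgfr (a prostaglandin receptor), Fbn2 (fibrillin-2), Trbc2, Itih2, Col1a2 and Pi16 complete the 12, with log2 changes of 7.43 to 9.47. Col1a2 was not uniform in the KO lines, at 270, 2.74 and 463 CPM. Without B52482 the calls of Trbc2 and Col1a2 were lost (adjusted p = 0.0628 and 0.0846). With the line as a block those of Dlk1, Mgp, Cbln1, Fbn2, Trbc2, Itih2, Col1a2 and Pi16 were lost (adjusted p = 0.0621 to 0.321), and with the vehicle libraries alone those of Crabp1, Mgp, Cbln1, Trbc2, Col1a2 and Pi16 (0.0532 to 0.0893). Of the 12, Slit3 and Adcy8 were called in each of the 6 fits that left out a line.

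The largest falls, by the same rule, included genes of epithelial surface proteins. St14 (matriptase), a membrane serine protease, was 0.316, 0.179 and 0.131 CPM in the KO lines and 259, 362 and 1.15 CPM in the Braf lines (-9.94 ± 2.46, adjusted p = 0.0338). It was high in B47275 and B48051 and low in B52482. Cblc and Sh3rf2 had no count in any KO line and were at least 409-fold and 214-fold lower, taking the KO group at 3 counts in all. 4930506M07Rik, 1110050K14Rik, Mpzl2, Slc38a1, Mgst1, Crb3, Sprr2g and Cdh3 were also among the 12. Without B52482 the call of 1110050K14Rik was lost (adjusted p = 0.0562). With the line as a block St14 (adjusted p = 0.458) and each of the other falls named here except Sh3rf2 lost the call. With the vehicle libraries alone 4930506M07Rik and Slc38a1 held it, and St14 did not (adjusted p = 0.0633).

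Cholesterol is made from acetyl-CoA through mevalonate, squalene and lanosterol, by enzymes whose genes are controlled together by the transcription factor SREBP2. In the Arid1a KO lines 11 of 25 tested genes of sterol synthesis and uptake were lower and 0 were higher. Over all genes 2.65% were lower and 0.979% higher. The median log2 change of the list was -1.38 against -0.01 for all genes. The called genes included Mvk and Mvd of the mevalonate steps, Idi1 of isoprenoid synthesis, Fdft1, which makes squalene, Lss, which closes the sterol rings, and Tm7sf2, Nsdhl, Ebp, Sc5d and Dhcr7 of the later steps. Tm7sf2 was 6.53, 4.44 and 8.83 CPM in the KO lines and 45.4, 48.2 and 19.4 CPM in the Braf lines (-2.51 ± 0.50, adjusted p = 0.0139). The KO lines were below all Braf lines in Tm7sf2, and B52482 was the lowest Braf line. Dhcr7 was 10.9, 9.78 and 6.86 CPM against 26.1, 53.6 and 20.8 CPM (-1.87 ± 0.40, adjusted p = 0.0191). Sc5d was 27.4, 21.8 and 19.8 CPM against 90.1, 56.9 and 47.4 CPM (-1.50 ± 0.35, adjusted p = 0.0307). For Idi1 the groups overlapped, since B52482 (4.43 CPM) was below BA45198 (5.06 CPM). Srebf2, which encodes SREBP2 (-0.79 ± 0.23, adjusted p = 0.0655), did not pass the test.

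The number of sterol genes called turned on the lines that entered. It was 3 with the vehicle libraries alone (Tm7sf2 and Sc5d among them), 4 with the line as a block (these and Ebp among them) and 17 without B52482, settings in which the count over all genes was 165, 414 and 1312. Leaving out B48051 gave 1, and leaving out B47275 or any KO line gave 0. The median log2 level of the list, on a scale of log2(CPM + 0.25), was 4.79, 4.46 and 4.50 in the KO lines and 6.50, 6.16 and 5.2 in the Braf lines, so the groups did not overlap. Fatty acid synthesis, which the related factor SREBP1 controls, had 3 of 16 tested genes lower and 0 higher (median -0.54). Fasn, fatty acid synthase, was 372, 329 and 397 CPM in the KO lines and 672, 1115 and 556 CPM in the Braf lines (-1.09 ± 0.25, adjusted p = 0.0257). Me1, malic enzyme, was 14.8, 30.1 and 32.2 CPM against 120, 52.5 and 58.0 CPM (-1.58 ± 0.36, adjusted p = 0.0258), and Acacb was the other called gene. Of 8 genes of sterol efflux and sensing, Abca1, the exporter of cellular cholesterol, was higher at 376, 299 and 483 CPM against 29.2, 61.0 and 105 CPM (2.57 ± 0.70, adjusted p = 0.0475). None of these 4 calls held with the vehicle libraries alone.

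Promoter sequence was read for the sterol genes because their RNA was lower together. RefSeq windows (GRCm38.p6) were found for 9 of the 11 called genes. The CCAAT box, the motif of the factor NF-Y, was searched as CCAAT on both strands in the 250 bases before the start, and was in all 9 windows, against 37.5% of 27025 genes with a window. TCACNCCAC, a core of the sterol regulatory element, was in 0 of the 9 and in 1.22% of all genes. At so low a share, 9 windows are too few to show a lack of this motif. Windows were found for 17 of the 25 tested sterol genes, too few for a share over the list, and 15 of these 17 held the CCAAT box, so genes that were not called held it too. CACCTG, an E-box searched in the junction genes described further on, had windows for 17 of 30 genes, and no share is given. A match is a run of letters and was not tested for binding. The 4 stretches shown were chosen after the values were seen, to show the box in an early, a middle and 2 late enzymes of the pathway. They run 5′ to 3′ on the gene's strand, with capitals on the box, which reads ATTGG where it lies on the other strand.
Tm7sf2, chr19:6067881-6067930, minus strand, bases 80 to 31 before the start: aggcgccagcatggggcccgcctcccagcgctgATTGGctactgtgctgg
Idi1, chr13:8885546-8885605, plus strand, bases 60 to 1 before the start: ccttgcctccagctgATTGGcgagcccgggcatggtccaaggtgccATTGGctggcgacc
Lss, chr10:76531525-76531574, plus strand, bases 80 to 31 before the start: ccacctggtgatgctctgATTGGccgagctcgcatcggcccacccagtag
Sc5d, chr9:42264311-42264360, minus strand, bases 60 to 11 before the start: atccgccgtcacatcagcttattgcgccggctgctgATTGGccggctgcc

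Under CKI no sterol gene passed the test between the same KO and Braf lines, where 0.736% of all genes did, and the median log2 change of the list was 0.17. The median level was 6.10, 5.87 and 5.83 in the KO lines and 6.06, 5.97 and 5.23 in the Braf lines, and the groups overlapped. Dhcr7 was 40.4, 38.1 and 32.5 CPM in the KO lines under CKI and 21.9, 31.2 and 23.0 CPM in the Braf lines. The change of the genotype difference with treatment (the interaction) had an unadjusted p under 0.05 in 18 of the 25 genes, against 5.12% of all genes. That share was 34.4% among the 567 genes called in vehicle. The interaction uses the same vehicle libraries, so the 2 results are not independent, and the part of this reuse in the share was not tested. No gene passed the adjusted edgeR test of the interaction (smallest adjusted p = 0.398), where 801 had an unadjusted p under 0.05 and DESeq2 called 37. With the line as a block, which pairs the 2 libraries of a line, 42 genes (0.269%) passed. Dhcr7 and Pmvk, a kinase of the mevalonate steps, were among them, with log2 interactions of 2.34 and 3.41 in that limma fit (adjusted p = 0.0451 for both) and edgeR adjusted p = 0.495 for both.

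**Figure D3:**
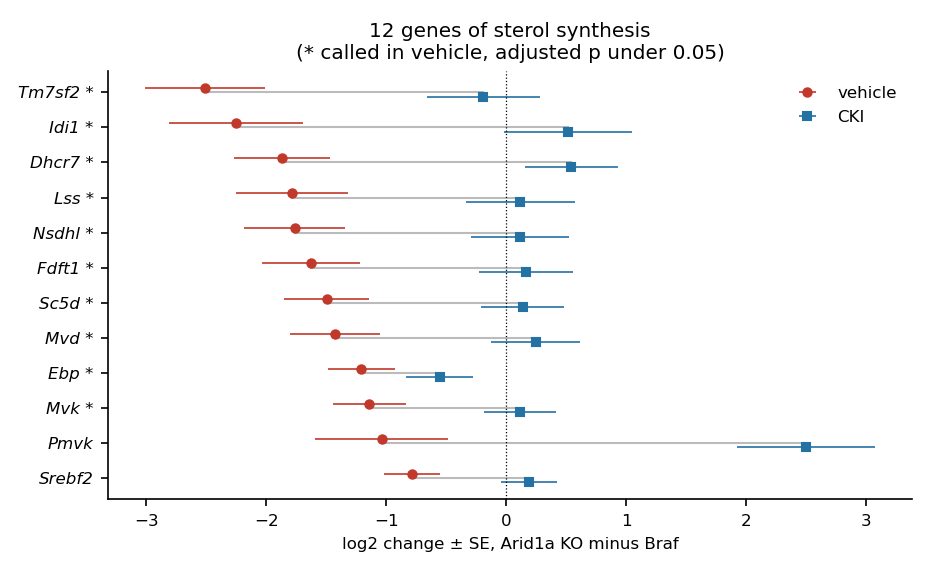
Log2 change of Arid1a KO minus Braf for 12 genes of sterol synthesis in vehicle (red circles) and under CKI (blue squares), with bars of 1 SE and an asterisk on the 10 genes called in vehicle. The 12 were picked from the 25 tested genes of the list after values were seen. All 12 vehicle values lie below 0, which for the 10 called genes follows from the choice.

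Epithelial cells are joined by tight junctions, adherens junctions and desmosomes. Of 30 tested genes of epithelial adhesion and junctions, 13 were lower in the KO lines and 0 higher, and the median log2 change was -8.35. Over all genes 2.65% were lower and 0.979% higher. Jup (plakoglobin), a link between cadherins and the cytoskeleton, was 68.4, 28.5 and 17.0 CPM in the KO lines and 326, 647 and 170 CPM in the Braf lines (-3.33 ± 0.51, adjusted p = 0.00326). Cgn (cingulin), of tight junctions, was 0.369, 0.0449 and 0.131 CPM against 56.6, 86.3 and 11.2 CPM (-8.13 ± 1.49, adjusted p = 0.00857). Pkp2 (plakophilin-2), of desmosomes, was 22.6, 7.40 and 13.2 CPM against 51.2, 53.6 and 37.4 CPM (-1.72 ± 0.35, adjusted p = 0.016). In these 3 genes every Braf line, B52482 included, was above every KO line. The call of Cgn was lost with the line as a block (adjusted p = 0.0557) and that of Pkp2 with the vehicle libraries alone (0.0623). Cdh1 (E-cadherin) was 1.53, 3.23 and 0.175 CPM in the KO lines and 787, 696 and 0.521 CPM in the Braf lines, and did not pass the test (-8.23 ± 2.85, adjusted p = 0.112). Epcam was 0.738, 0.897 and 1.84 CPM against 254, 403 and 0.364 CPM (-7.55 ± 2.29, adjusted p = 0.0707). B52482 was as low as the KO lines in Cdh1 and Epcam, and without it both were called (adjusted p = 0.0292 and 0.0087).

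The junction list had a median log2 level of -1.06, -1.76 and -1.39 in the KO lines, 6.01 and 7.04 in B47275 and B48051, and -0.19 in B52482. The Arid2 KO lines were at -1.22, -1.25 and -0.80, and the Smarcb1 KO lines at -1.27, 2.50 and -1.49, so a low level was also found in lines without Arid1a KO. The list held 24 called genes without B52482, 3 with the vehicle libraries alone, 2 with the line as a block and 1 to 3 without any other line, and the counts over all genes moved with it, as given above. Of 18 epithelial transcription factors 1, Foxa1, was lower (median -2.46), and of 7 keratins none was called (median -3.81). Of 25 genes of basement membrane and integrins, Lama3, a chain of laminin-332, was lower at 0.316, 0.224 and 0.131 CPM against 37.8, 376 and 1.56 CPM (-9.25 ± 2.37, adjusted p = 0.0389). The calls of Foxa1 and Lama3 were lost with the line as a block (adjusted p = 0.0721 and 0.284) and with the vehicle libraries alone (0.113 and 0.0906).

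Of 26 tested genes of fibrillar matrix and fibroblasts 4 were higher in the KO lines and 0 lower (median 1.78). Over all genes 0.979% were higher and 2.65% lower. Dcn (decorin), a proteoglycan that binds collagen fibrils, was 1040.2, 160 and 232 CPM in the KO lines and 7.21, 0.314 and 2.97 CPM in the Braf lines (7.08 ± 1.52, adjusted p = 0.0196). The groups did not overlap, and the other called genes were Mgp, Fbn2 and Col1a2, of which Col1a2 was lost without B52482. The list median was 6.27, 5.53 and 5.79 in the KO lines, 1.67 and -0.07 in B47275 and B48051, and 4.88 in B52482. It held 2 called genes with the vehicle libraries alone, 1 with the line as a block and at most 1 when a line other than B52482 was left out. Of 22 mesenchymal factors and markers none was called (median 0.88), and Snai2 was 109, 126 and 46.3 CPM against 5.86, 5.64 and 20.2 CPM (3.15 ± 0.93, adjusted p = 0.064). Of 12 tested markers of fibroblasts and smooth muscle 1 was higher. Their summed level was 925 to 3530 CPM in the KO lines and 31.9, 5.70 and 246 CPM in the Braf lines. Acta2, Myh11, Des and Thy1 were at most 0.417 CPM in all 6. The highest of these markers in the KO lines were Dcn, Pdgfra (358 to 1034.3 CPM, Braf 2.51 to 35.8) and Col3a1 (273 to 1221.5 CPM, Braf 0.836 to 77.7). Col1a1 did not share this rise, at 1.01 to 10.5 CPM in the KO lines and 1.36 to 56.1 CPM in the Braf lines. The leukocyte markers summed to 2.83 to 4.37 CPM against 3.65 to 5.38 CPM, and those of endothelium to 18 to 87.5 CPM against 7.26 to 25.4 CPM. The part of other cells in the matrix and junction results was not tested, and fewer cells of a type and less RNA per cell cannot be told apart.

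**Figure D4:**
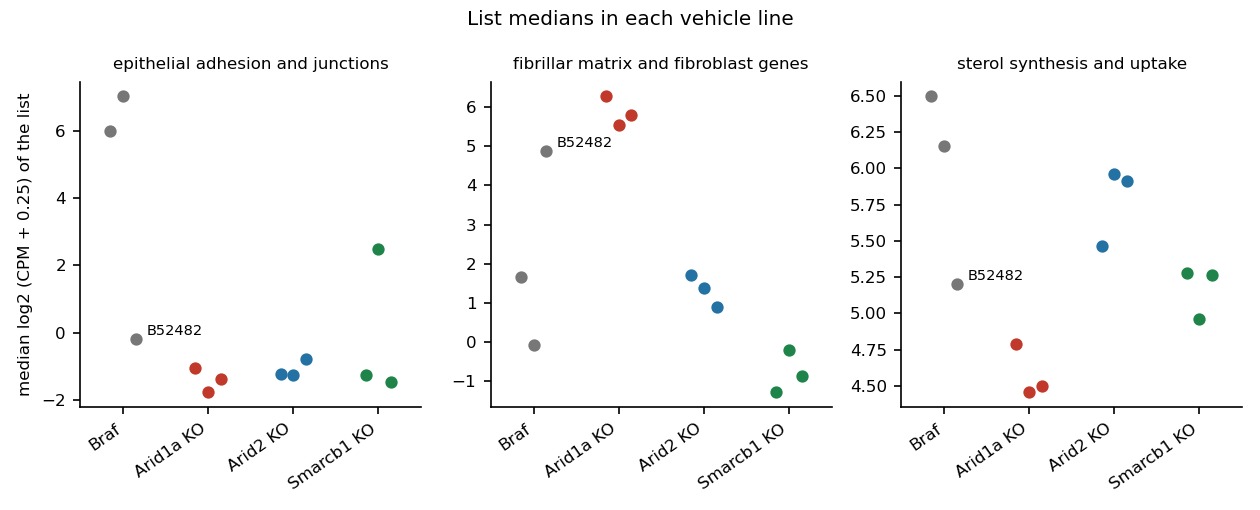
Median log2(CPM + 0.25) of the epithelial junction, fibrillar matrix and sterol lists in each vehicle line of the 4 genotypes, with B52482 labelled. B52482 sits near the Arid1a KO lines in the first 2 lists and, at 5.2, between the KO lines and the other Braf lines in the sterol list.

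Of 14 tested thyroid differentiation genes 1 was lower and 0 were higher, with a median of -0.24. Over all genes 2.65% were lower and 0.979% higher, and 1 call is not read as a change of the list. The called gene was Thrb, a thyroid hormone receptor, at 0.738, 0.987 and 0.0437 CPM against 44.7, 4.18 and 7.19 CPM (-4.98 ± 1.36, adjusted p = 0.049), a call lost with the line as a block (adjusted p = 0.176) and with the vehicle libraries alone (0.114). Tg, which encodes thyroglobulin, was 17.8, 0.673 and 1.05 CPM in the KO lines and 7.54, 1.67 and 1.56 CPM in the Braf lines, and overlapped (0.85 ± 1.37, adjusted p = 0.804). Pax8 was 72.2, 38.6 and 35.9 CPM against 129, 79.6 and 86.4 CPM and did not pass the test (-1.01 ± 1.10, adjusted p = 0.678), although the groups did not overlap.

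Of 20 genes on the MAPK output list, 1 was higher and 1 lower (median 0.14). Over all genes 0.979% were higher and 2.65% lower, and so few calls are not read as a change of the list. Spry4, a feedback inhibitor of the pathway, was 203, 205 and 211 CPM in the KO lines and 9.37, 16.3 and 63.3 CPM in the Braf lines (2.80 ± 0.64, adjusted p = 0.0251). Epha4, an ephrin receptor, was 2.85, 0.314 and 2.97 CPM against 82.5, 60.2 and 45.6 CPM (-4.94 ± 1.19, adjusted p = 0.0313). The KO lines were nearly equal in Spry4, and neither gene overlapped between groups. Both calls were lost with the vehicle libraries alone (adjusted p = 0.0772 and 0.0884), and that of Epha4 also with the line as a block (0.0723). Dusp6, the ERK phosphatase gene, did not pass the test (0.12 ± 0.44, adjusted p = 0.927). Members of this list did not all move alike under CKI. Mean Spry4 was 29.6 CPM in vehicle and 5.28 CPM under CKI in the Braf lines, and 206 and 24.1 CPM in the KO lines. Mean Epha4 went from 62.8 to 116 CPM in the Braf lines and from 2.04 to 42.8 CPM in the KO lines. The effect of CKI itself was not tested here.

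Genes of other ligands, receptors and pathways are set against the shares over all genes, 0.979% higher and 2.65% lower. Of 12 EGFR-family ligands and receptors, 2 were lower. Nrg2, a neuregulin, was 0.0527, 0.0449 and 0.0437 CPM in the KO lines and 4.78, 1.36 and 4.22 CPM in the Braf lines (-6.03 ± 0.95, adjusted p = 0.00356). Tgfa, an EGFR ligand, was 7.01, 0.449 and 1.57 CPM against 84.0, 135 and 30.0 CPM (-4.79 ± 1.09, adjusted p = 0.0248). Both were below the Braf range in every KO line. Of 28 axon guidance genes Slit3 was higher, and Sema4d (-6.75 ± 1.28), Sema3e and Plxnb1, the receptor of Sema4d, were lower (adjusted p = 0.0106, 0.0342 and 0.049). For Plxnb1 the groups overlapped, since B52482 (10.9 CPM) was below BA45198 (13.3 CPM) and BA47473 (21.1 CPM). Of 26 Wnt pathway genes Wnt10a was lower, at 0.580, 0 and 0 CPM against 16.6, 63.7 and 119 CPM (-8.46 ± 2.02, adjusted p = 0.0313). Crabp1 was the called gene of 16 in the retinoic acid pathway, Dlk1 of 12 imprinted growth genes, and Foxj1, a regulator of motile cilia, of 10 cilium genes, where it was lower. With the line as a block the calls of Sema4d, Sema3e, Plxnb1, Wnt10a, Foxj1 and Dlk1 were lost (adjusted p = 0.0851 to 0.381), and with the vehicle libraries alone those of Tgfa, Sema3e, Plxnb1, Wnt10a, Foxj1 and Crabp1 (0.0533 to 0.116). Nrg2 was called in both.

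**Figure D5:**
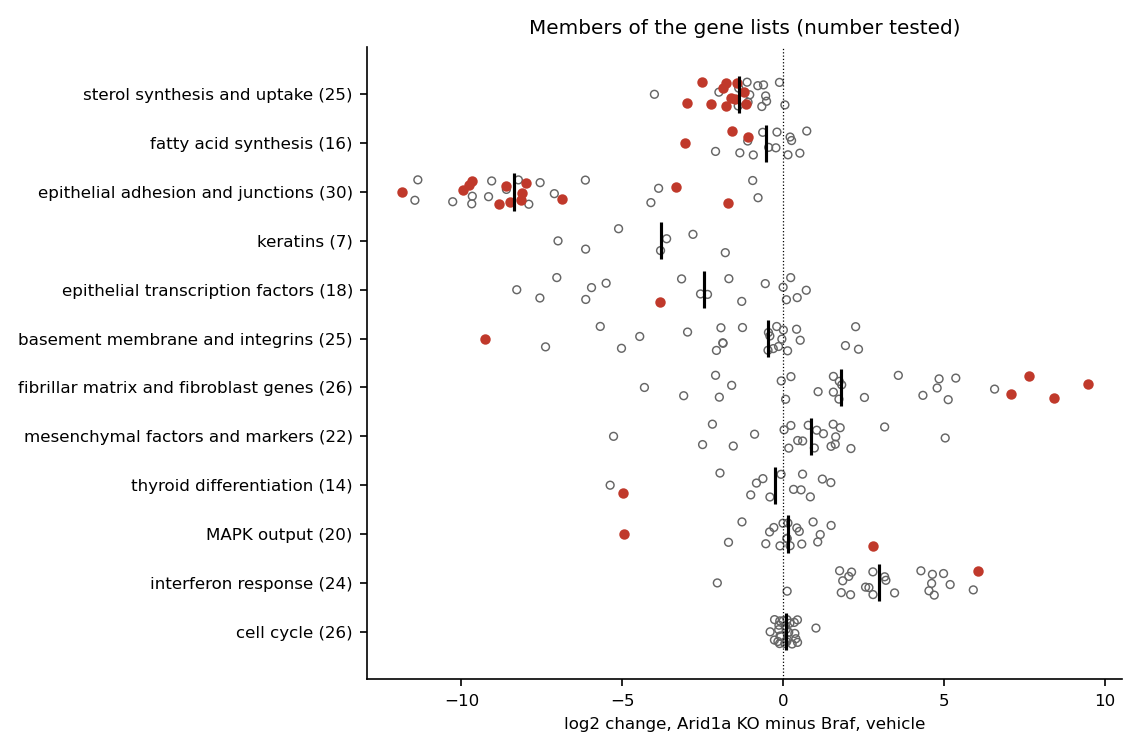
Log2 change of Arid1a KO minus Braf in vehicle for each tested member of 12 gene lists, with called genes filled in red and a bar at the median of each list. The epithelial junction list lies lowest, at a median of -8.35.

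Interferon response genes had a median log2 change of 2.97 over 24 genes, which came from 1 line. Their median log2 level was 6.45 in BA45198, against 0.52 and -0.34 in the other KO lines and 1.31, 0.61 and -0.27 in the Braf lines, and it was 1.0 in BA45198 under CKI. Isg15, a ubiquitin-like protein induced by interferon, was the called gene, at 160, 1.97 and 1.79 CPM against 0.843, 0.784 and 0.833 CPM (6.05 ± 1.38, adjusted p = 0.0252). With the line as a block its adjusted p was 0.426, and with the vehicle libraries alone 0.102. Of 12 genes of MHC class I presentation Tapbpl, a peptide editor, was lower at 12.2, 8.75 and 9.53 CPM against 21.3, 18.6 and 20.3 CPM (-0.98 ± 0.19, adjusted p = 0.0135, and 0.0551 with the vehicle libraries alone). No gene was called among 26 of the cell cycle (median 0.08), 13 CDK inhibitors and p53 targets, 8 AP-1 subunits and 25 Hox genes. The same held for 18 TGF-beta and YAP response genes, 21 FGF, PDGF and other receptor kinase genes and 14 genes of stress responses. Since 3.63% of all genes were called, lists this short can hold no call, and these counts do not show that the lists were unchanged.

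The Arid1a KO lines were also tested directly against the lines that lost another subunit, which share the Arid1a KO libraries with the comparison above. Against Arid2 KO 401 genes (2.56%) were called, 191 higher (1.22%) and 210 lower (1.34%). This split was not stable: 205 of 348 calls were higher with the line as a block, and 102 of 161 without BA49112. Against Smarcb1 KO 2157 genes (13.8%) were called, 1280 higher (8.19%) and 877 lower (5.61%). Vat1 was 408 ± 80.7 CPM in the Arid2 KO lines and 479 ± 81.7 CPM in the Smarcb1 KO lines (SD, n = 3 lines each), and Arid1a KO was lower than both, by -3.89 ± 0.32 and -4.12 ± 0.32 (adjusted p = 6.06e-06 and 2.81e-06). Rgl1 was 11.2 ± 1.89 and 7.37 ± 4.33 CPM, and Arid1a KO was higher than both, by 3.39 ± 0.55 and 4.0 ± 0.57 (adjusted p = 0.00468 and 0.000323). Slc38a1, Nrg2, Prkag2 and Chic1 likewise differed from both other genotypes in the direction seen against Braf. Fst was not of this kind: it was 85.7 ± 62.6 CPM with Arid2 KO but 4.77 ± 2.35 CPM with Smarcb1 KO, and the difference from Smarcb1 KO did not pass the test (-2.22 ± 0.79, adjusted p = 0.0689). Cxadr was 3.46 CPM in the Smarcb1 KO lines, and its difference from Arid1a KO did not pass the test (adjusted p = 0.43). Crabp1 was 1030 ± 740 CPM in the Smarcb1 KO lines (adjusted p = 0.838), and Spry4 was 404 ± 154 CPM there (0.304). Cacna1a was 31.9 ± 8.81 CPM in the Arid2 KO lines (0.169). Tapbpl was 9.04 ± 1.01 and 7.45 ± 0.712 CPM with Arid2 KO and Smarcb1 KO (0.749 and 0.129). None of these differences from Arid1a KO passed the test. Of the 25 sterol genes 3 were lower in Arid1a KO than in Arid2 KO (median -0.79) and 5 lower than in Smarcb1 KO (median -0.70). Of the 30 junction genes 3 and 2 were lower. Matrix genes were 4 higher and 1 lower against Arid2 KO, and 12 higher and 0 lower against Smarcb1 KO.

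Under CKI, 115 genes (0.736%) differed between the Arid1a KO and Braf lines, 38 higher (0.243%) and 77 lower (0.493%). Of these, 69 were also called in vehicle in the same direction, which is 60.0% of the CKI calls and 12.2% of the vehicle calls, in the same lines and so not as independent evidence. Vat1 remained lower under CKI at 34.1 ± 13.4 CPM against 211 ± 40.0 CPM (-2.63 ± 0.30, adjusted p = 0.000562). Rgl1 was higher at 77.3 ± 32.3 CPM against 9.06 ± 3.79 CPM (3.09 ± 0.55, adjusted p = 0.0176), and Slc38a1 was lower at 0.0924 CPM against 58.1 CPM (adjusted p = 0.0169). Fst was 67.3 ± 42.3 CPM in the KO lines under CKI and 149 ± 34.4 CPM in the Braf lines (-1.15 ± 0.72, adjusted p = 0.504). The Fst interaction (5.48 ± 1.10) did not pass in edgeR (adjusted p = 0.398) or with the line as a block (0.16). DESeq2 called it (adjusted p = 0.000489). Chic1 was 20.4 ± 2.82 CPM against 14.2 ± 3.5 CPM (0.52 ± 0.43, adjusted p = 0.633), and its interaction was called with the line as a block.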

How the data were processed

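RNA-seq counts per gene symbol were deposited by the authors for 27 libraries and 33924 symbols, as raw counts with 1 column per library, and every column was mapped to a sample by its name. Per the submitters' processing notes, mm9, STAR 2.4, HTSeq 0.6.1 and DESeq2 were used. The notes do not state which step each tool did, and the gene annotation and strand setting are not stated either, so overlapping genes, pseudogenes and near-identical copies are uncertain. No symbol was given mm9 coordinates, and promoter windows came from RefSeq (GRCm38.p6).

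The 24 tumor line libraries were fitted together in edgeR 4.0.16 (R 4.3.3) with filterByExpr, TMM scaling and 1 mean per group, which left 15634 genes and 16 residual degrees of freedom. The quasi-likelihood F test was adjusted by Benjamini-Hochberg, and genes under 0.05 were called. This counts the vehicle and CKI libraries of a line as independent, although their consensus correlation was 0.486 (limma 3.58.1). Alternatives were the 12 vehicle libraries alone, limma voom with the line as a block, DESeq2 1.42.0, other scalings and filters, the compared groups alone and each line left out. The pairing comes from the line names, which the vehicle and CKI libraries share, whereas the KO and Braf lines are different lines. A gene with no count in a group was set at 3 counts over the group for a bound on the fold. The code was tested on simulated data.

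The comparison and the 35 gene lists were chosen with earlier results of these data known. Named genes are Arid1a, up to 4 called members of each list with the smallest adjusted p, the called members of the thyroid and MAPK lists, and, of called genes whose groups did not overlap and whose mean log2 CPM reached 2, the 12 largest rises and 12 largest falls. Others named were chosen after their values were seen, including the remaining sterol genes. Some genes that met these rules are not reported here.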

Additional observations from a re-analysis of the deposited data

How the results depend on the processing

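The count of genes called between Arid1a KO and Braf in vehicle was 567. It was 1571 with DESeq2, 365 without a filter on low counts, 165 with the vehicle libraries alone, 936 with all 27 libraries and 24 with the compared groups alone, and 68 to 1312 when a line was left out. It was within 1.5 times of 567 with RLE size factors (572), a filter of 1 CPM (566), the line as a replicate block (414, of which 196 were higher) and without the 2 shallow Smarcb1 KO CKI libraries (479, a setting chosen after seeing the data). Against Arid2 KO the count of 401 became 1240 with DESeq2, 235 without a filter, 156 with the vehicle libraries alone, 651 with all 27 libraries and 75 to 214 when a line was left out. Against Smarcb1 KO the count of 2157 became 3244 with DESeq2, 1416 with the compared groups alone and 1155 to 1919 when a line was left out. The interaction count of 0 became 37 with DESeq2 and 42 with the replicate block. The log2 change of Arid1a missed the threshold without a filter (-0.71), with the vehicle libraries alone (-0.72), with the replicate block (-0.73) and with the compared groups alone (-0.73), and was -0.86 to -0.61 when a line was left out, where 4 of 6 fits lost the call. The cause was not tested. The log2 change of Arid1a kept its sign under these alternatives, and none of the 64 named genes that were called was reversed where tested. Nkx2-1, which was not called, went from -0.06 to 0.03 without B52482. The split of calls against Arid2 KO was less stable. It went from 191 higher of 401 to 205 of 348 with the replicate block and 222 of 432 with the compared groups alone. It was 39 of 75 without BA47473 and 102 of 161 without BA49112. Of 64 named genes that were called, 29 kept the call with the vehicle libraries alone, 30 with the replicate block and 61 without B52482. With 3 lines a group, a difference that misses the threshold is not shown to be absent.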

Other observations

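Some called genes lay outside the lists and the size rule, and those named here were chosen after their values were seen. Of the 567 called genes, 516 were on no list. Lpar2, a receptor for lysophosphatidic acid, was 2.21, 1.88 and 1.97 CPM in the Arid1a KO lines and 24.6, 36.5 and 15.2 CPM in the Braf lines (-3.65 ± 0.57, edgeR adjusted p = 0.00326). Sphk1, the kinase that makes sphingosine 1-phosphate, was 4.95, 2.83 and 3.5 CPM against 37.9, 68.5 and 19.9 CPM (-3.48 ± 0.76, adjusted p = 0.0209). Both genes of lysophospholipid signaling were below the Braf range in every KO line and were called in all 4 fits. Mapk12, which encodes p38 gamma, was 2.85, 1.57 and 2.32 CPM against 27.3, 12.9 and 17.6 CPM (-3.10 ± 0.47, adjusted p = 0.00326). Il16, a cytokine gene, was higher at 22.3, 64.1 and 16.8 CPM against 0.234, 0.418 and 1.09 CPM (5.88 ± 1.02, adjusted p = 0.00634). Neither Mapk12 nor Il16 overlapped between the groups. Kazn, which encodes the junctional protein kazrin, was 0.105, 0.0449 and 0.0437 CPM against 10.5, 27.6 and 22.1 CPM (-8.18 ± 1.42, adjusted p = 0.00659), and B52482 was not the lowest Braf line in it. The pseudogene Gm10036 was 35.2, 26.5 and 37.4 CPM in the KO lines and 0.703, 0.418 and 0.885 CPM in the Braf lines (5.61 ± 0.60, adjusted p = 0.000181), and its counts are uncertain since reads of near-identical copies may be split.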
